A study of Homo sapiens with 9 samples.

Results

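HAS2, the hyaluronan synthase that LX-2 cells expressed far above the other synthases, had a mean level of 12.2 FPKM in the 3 LOXL1 siRNA libraries, 9.33 FPKM in the 3 LOX siRNA libraries and 8.95 FPKM in the 3 control siRNA libraries. The mean with LOXL1 siRNA was thus 36.5% above that with control siRNA. None of the other 9 genes of hyaluronan synthesis, turnover and binding described here passed the test in any comparison, and HAS3 and TNFAIP6 among them were too low to be tested. FPKM, the deposited unit, divides the fragments of a gene by transcript length and by the mapped total of the library.

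The 10 genes are HAS2, HAS3, UGDH, HYAL1, HYAL2, HYAL3, CD44, VCAN, TNFAIP6 and HMMR. They were found by symbol among the 17123 protein-coding genes of the deposited table. They were listed for their roles, and the set was chosen by the FPKM values of HAS2, already known to be higher with LOXL1 siRNA than in the other groups. In the comparisons of LOXL1 siRNA, the levels, fitted differences and intervals of HAS2 are therefore a description, and its place among the genes past a threshold was fixed by that choice. The values came from LX-2, an established line of human hepatic stellate cells, the cells that turn into matrix-producing myofibroblasts in liver fibrosis. The 3 groups were TGFβ1 with LOXL1 siRNA, TGFβ1 with LOX siRNA and TGFβ1 with a negative control siRNA, each with 3 libraries. TGFβ1 at 10 ng/ml was given in all 3 groups, so there is no group without it, and LOXL1 siRNA and LOX siRNA were transfected at 25 nM for 48 h. The dose and time of the control siRNA are not given in the labels. LOX and LOXL1 are lysyl oxidases, which cross-link collagen and elastin. All libraries came from 1 cell line. Separate cultures behind the 3 libraries of a group are not stated in the labels, so p-values measure library-to-library spread that may be technical.

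Hyaluronan is a long unsulphated glycosaminoglycan that is made at the plasma membrane. HAS enzymes join UDP-glucuronic acid and UDP-N-acetylglucosamine and push the growing chain out of the cell. Hyaluronidases cut it into fragments, cell surface receptors such as CD44 bind it, and proteoglycans such as versican and the protein TSG-6 tie it into the matrix. In liver, activated stellate cells are a known source of hyaluronan, and sinusoidal endothelial cells clear it from blood.

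LOX, targeted by its siRNA, averaged 28.4 ± 2.67 FPKM with LOX siRNA and 46.2 ± 2.94 FPKM with control siRNA (SD, n = 3 each), and fell in that comparison (limma, adjusted p = 0.000673). LOXL1 averaged 6.80 ± 0.997 FPKM with LOXL1 siRNA and 12.3 ± 1.11 FPKM with control siRNA (SD, n = 3 each), and fell likewise (limma, adjusted p = 0.00432). Summed FPKM was 384880.6 to 396088.4 per library. The table holds no read counts, so the depth is unknown and no counting interval is given. The summed level of 8 stellate cell and myofibroblast markers was 2299 to 2415 FPKM with LOXL1 siRNA, 2222 to 2441 FPKM with LOX siRNA and 2245 to 2433 FPKM with control siRNA, and most of it came from VIM and TAGLN. DES, one of the 8, was at 0 to 0.03 FPKM in all libraries. Of the 7 tested, 5 were below 0 in LOXL1 siRNA against control siRNA, where 46.7% of all genes tested were above 0. None of the 7 passed the test in any comparison. PDGFRB, a receptor of stellate cells, averaged 6.34 ± 0.252 FPKM with LOXL1 siRNA, 6.77 ± 0.627 FPKM with LOX siRNA and 7.44 ± 0.269 FPKM with control siRNA (SD, n = 3 each). Its LOXL1 siRNA libraries lay below the control libraries, by a difference of -0.20 on the scale of log2(FPKM + 1) (limma, adjusted p = 0.282). The part of these markers in the HAS2 difference was not tested. All 4 hepatocyte markers in the table and all 6 endothelial markers were under 1 FPKM in every library. The 5 macrophage markers summed to 42.3 to 45.9 FPKM with LOXL1 siRNA, 41.3 to 46.3 FPKM with LOX siRNA and 41.4 to 47.9 FPKM with control siRNA. Most of this was CD68, a lysosomal gene not limited to macrophages, at 38.23 to 45.02 FPKM, with CD14 at 1.31 to 2.45 and PTPRC at 0.70 to 1.28 FPKM, while CD163 and MARCO were at 0 to 0.04 FPKM. Of 3 cholangiocyte markers, KRT7 was at 2.43 to 4.09 FPKM, KRT19 at 0 to 0.23 and EPCAM at 0 to 0.10 FPKM. In bulk RNA, fewer cells expressing a gene and less RNA per cell cannot be told apart.

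The 10 genes spanned a wide range of levels, with CD44 at the top and HAS3 at the bottom in every group. With control siRNA, CD44 averaged 178.6 FPKM, followed by HMMR at 26.9, UGDH at 21.2, VCAN at 16.1, HYAL2 at 12.8, HYAL3 at 11.5, HAS2 at 8.95, HYAL1 at 0.957, TNFAIP6 at 0.840 and HAS3 at 0.123 FPKM. HYAL1 and TNFAIP6 were the one pair of neighbours in that order whose ranges over libraries overlapped. With LOX siRNA HAS2 was also in 7th place, while HYAL3 and HYAL2 overlapped. With LOXL1 siRNA HAS2 was in 5th place at 12.2 FPKM, in a run with HYAL2 at 11.9 and HYAL3 at 11.5 FPKM in which neighbours overlapped.

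**Figure D1:**
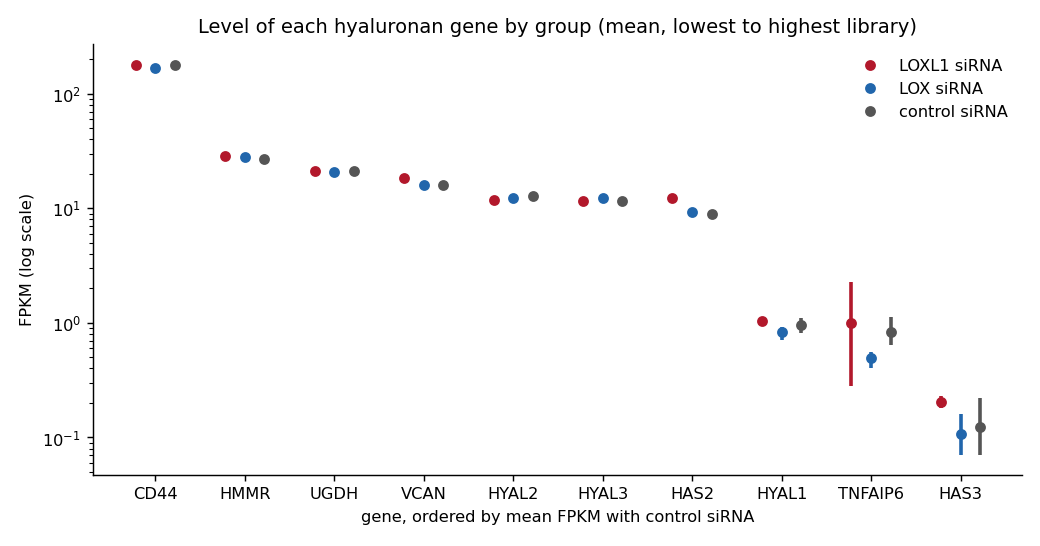
Level of each of the 10 genes in FPKM on a log scale, as the mean (point) and the lowest to highest library (line) of 3 libraries per group. CD44 stands at the top and HAS3 at the bottom in every group, and TNFAIP6 with LOXL1 siRNA has the widest spread, 0.28 to 2.27 FPKM.

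The synthesis genes are taken first. HAS2 (gene ID 3037, chromosome 8, 121613031 to 121641390, minus strand, in coordinates read as GRCh38) encodes the synthase responsible for most hyaluronan of mesenchymal cells. Its level was 12.34, 11.64 and 12.67 FPKM in the LOXL1 siRNA libraries, 9.70, 9.32 and 8.96 FPKM in the LOX siRNA libraries, and 9.03, 8.56 and 9.26 FPKM in the control siRNA libraries. Every LOXL1 siRNA library lay above every other library, and the LOX siRNA and control siRNA libraries overlapped. On the scale of log2(FPKM + 1), used for all fitted differences below, HAS2 with LOXL1 siRNA was 0.41 (SE 0.05) above control siRNA and 0.36 (SE 0.05) above LOX siRNA. Leaving out each library in turn gave 0.38 to 0.44 against control siRNA and 0.33 to 0.39 against LOX siRNA. The difference of LOX siRNA from control siRNA was 0.05 (SE 0.05), with a 95% interval of -0.06 to 0.16. With length and GC trends removed, HAS2 differed from control siRNA by 0.36 with LOXL1 siRNA and 0.01 with LOX siRNA. HAS2 shares 201 of its 4190 exon bases with the antisense gene HAS2-AS1. The labels do not state whether fragments were counted by strand, so reads of the pair cannot be told apart in the shared bases.

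HAS3 (chromosome 16, 69105564 to 69118719, plus strand), a second synthase, was under 1 FPKM in every library and was not tested. It had 0.20, 0.18 and 0.23 FPKM with LOXL1 siRNA, 0.16, 0.09 and 0.07 FPKM with LOX siRNA, and 0.08, 0.07 and 0.22 FPKM with control siRNA. The LOXL1 siRNA libraries lay above the LOX siRNA libraries and overlapped the control siRNA libraries. If the lowest values of a library are read as 1 fragment, 1 fragment of HAS3 is worth 0.0134 to 0.0139 FPKM, so these levels rest on few fragments. HAS3 also shares 365 exon bases with CHTF8 on the opposite strand. HAS1, the remaining synthase, was at 0 to 0.05 FPKM in all libraries. HAS2 made up 97.7% to 99.0% of the summed FPKM of the 3 synthases in every library.

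UGDH (chromosome 4, 39498755 to 39527598, minus strand) oxidises UDP-glucose to UDP-glucuronic acid, a building block of hyaluronan. It had 21.51, 21.08 and 21.37 FPKM with LOXL1 siRNA, 21.20, 20.08 and 20.95 FPKM with LOX siRNA, and 21.94, 19.97 and 21.64 FPKM with control siRNA. All 3 groups overlapped. The fitted difference was 0.01 for LOXL1 siRNA (limma, adjusted p = 0.962) and -0.03 for LOX siRNA (limma, adjusted p = 0.931), both against control siRNA. The ratio of HAS2 to UGDH was 0.573 with LOXL1 siRNA, 0.450 with LOX siRNA and 0.423 with control siRNA. UGDH hardly differed, so HAS2 carries this difference into the ratio.

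The other genes of synthesis and nucleotide sugar supply held 6 tested genes of 7, and none passed the test in any comparison. Their median difference from control siRNA was 0.05 with LOXL1 siRNA and 0.06 with LOX siRNA. In each comparison 5 of 6 were above 0, where 46.7% and 52.2% of all genes tested were, in the same order. These comparisons share the control libraries. UAP1, the enzyme that makes UDP-N-acetylglucosamine, averaged 43.7 ± 0.852 FPKM with LOXL1 siRNA, 43.8 ± 1.26 FPKM with LOX siRNA and 40.2 ± 2.04 FPKM with control siRNA (SD, n = 3 each). Both targeting siRNA groups lay above the control libraries, with adjusted p = 0.352 for LOXL1 siRNA and 0.650 for LOX siRNA (limma). GFPT2, an isoform of the first enzyme of the hexosamine pathway, had 25.33, 25.75 and 28.93 FPKM with LOXL1 siRNA, 29.55, 29.22 and 27.42 FPKM with LOX siRNA, and 27.96, 29.68 and 29.41 FPKM with control siRNA. The groups overlapped, and the difference of LOXL1 siRNA from control siRNA was -0.12 (limma, adjusted p = 0.462). UGP2, which makes UDP-glucose, differed from control siRNA by 0.05 with LOXL1 siRNA and 0.08 with LOX siRNA, and PGM3, of the hexosamine pathway, by 0.07 and 0.05, with overlapping groups.

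**Figure D2:**
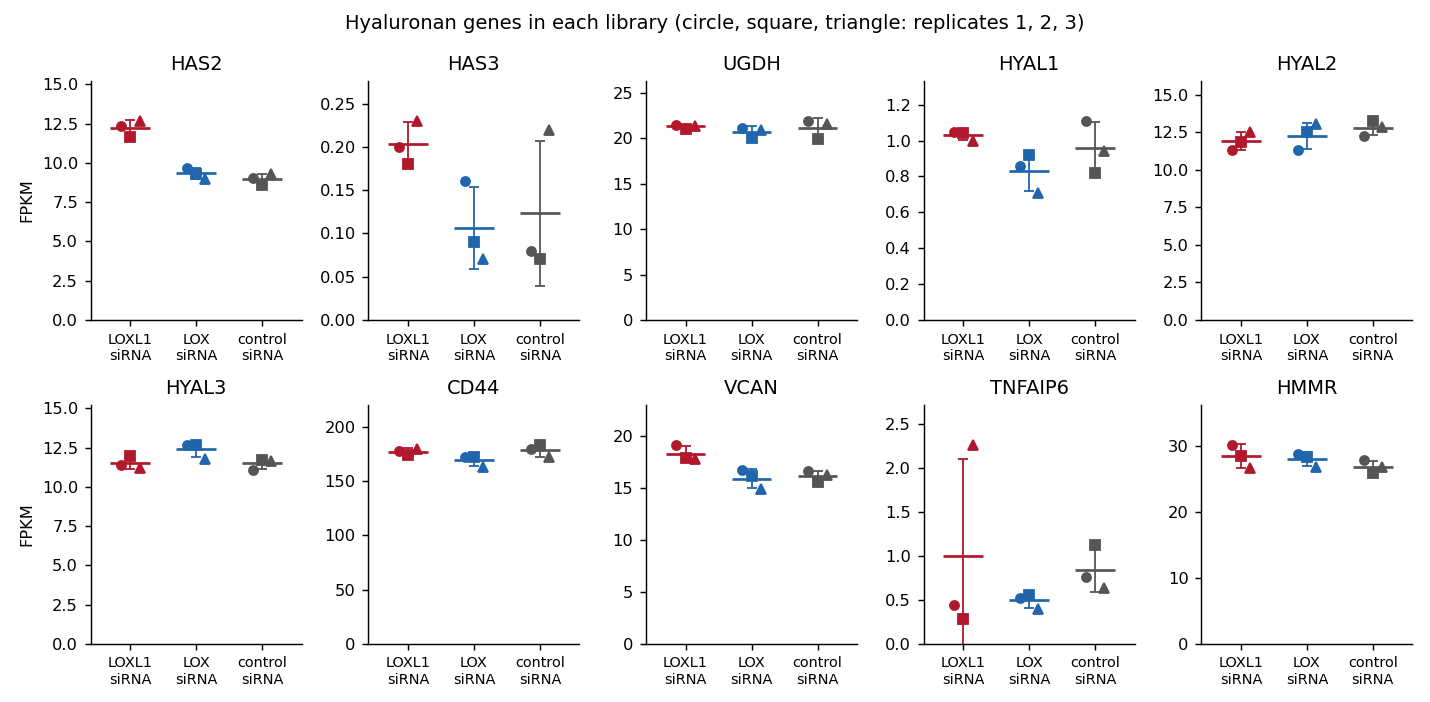
FPKM of each of the 10 genes in each library, with the mean (horizontal line) and SD (bar, cut off at 0 for TNFAIP6 with LOXL1 siRNA) of 3 libraries per group, on linear axes that start at 0. The 3 LOXL1 siRNA points of HAS2, 11.64 to 12.67 FPKM, lie above the other 6, and for TNFAIP6 1 LOXL1 siRNA point lies at 2.27 FPKM.

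The 3 hyaluronidase genes lie side by side in 30023 bases of chromosome 3, from 50292828 to 50322850, all on the minus strand in the order HYAL3, HYAL1 and HYAL2. HYAL2 (50317790 to 50322850) encodes a membrane-anchored enzyme that makes the first cuts in long chains. It had 11.34, 11.87 and 12.52 FPKM with LOXL1 siRNA, 11.30, 12.48 and 13.01 FPKM with LOX siRNA, and 12.26, 13.25 and 12.82 FPKM with control siRNA. The groups overlapped, and the differences from control siRNA were -0.09 (SE 0.06) with LOXL1 siRNA and -0.06 (SE 0.06) with LOX siRNA (limma, adjusted p = 0.594 and 0.865). With length and GC trends removed, the value with LOXL1 siRNA was -0.03. HYAL2 shares 509 exon bases with TUSC2 on the same strand.

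HYAL1 (50299889 to 50312381) encodes the lysosomal enzyme that degrades the fragments further. It was near the filter of 1 FPKM in 3 libraries, which it met through the 3 LOXL1 siRNA libraries and control replicate 1. Its values were 1.05, 1.04 and 1.00 FPKM with LOXL1 siRNA, 0.86, 0.92 and 0.71 FPKM with LOX siRNA, and 1.11, 0.82 and 0.94 FPKM with control siRNA. The LOXL1 siRNA libraries lay above the LOX siRNA libraries and inside the range of the control libraries. The difference between LOXL1 siRNA and LOX siRNA was 0.15 (SE 0.08; limma, adjusted p = 0.478), and 0.29 with a pseudocount of 0.1.

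HYAL3 (50292828 to 50299468), a family member whose own enzymatic activity is weak or uncertain, had 11.40, 11.96 and 11.23 FPKM with LOXL1 siRNA, 12.70, 12.70 and 11.80 FPKM with LOX siRNA, and 11.10, 11.72 and 11.67 FPKM with control siRNA. The LOX siRNA libraries lay just above the control libraries, while the LOXL1 siRNA libraries overlapped both. The difference of LOX siRNA from control siRNA was 0.10 (SE 0.05; limma, adjusted p = 0.706). HYAL3 shares 248 exon bases with NAA80, listed in the table as NAT6, and 43 with IFRD2, on the same strand, so its level is uncertain.

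The summed level of the 3 hyaluronidases was similar in all groups, at 24.5 ± 0.592 FPKM with LOXL1 siRNA, 25.5 ± 0.620 FPKM with LOX siRNA and 25.2 ± 0.682 FPKM with control siRNA (SD, n = 3 each). The ratio of HAS2 to this sum was 0.500 ± 0.0275 with LOXL1 siRNA, 0.366 ± 0.0211 with LOX siRNA and 0.355 ± 0.0202 with control siRNA (SD, n = 3 each). Its range was 0.468 to 0.519 with LOXL1 siRNA, 0.351 to 0.390 with LOX siRNA and 0.332 to 0.369 with control siRNA. The LOXL1 siRNA libraries did not overlap the others, a separation that HAS2 carries into the ratio.

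Among the other turnover genes, 5 of 7 were tested and none passed the test in any comparison. All 5 were below 0 in LOXL1 siRNA against control siRNA, with a median of -0.04, where 46.7% of all genes tested were above 0. HEXA, which encodes a lysosomal enzyme subunit that trims the ends of hyaluronan fragments, averaged 52.0 ± 0.680 FPKM with LOXL1 siRNA, 55.4 ± 1.91 FPKM with LOX siRNA and 56.0 ± 1.55 FPKM with control siRNA (SD, n = 3 each). Its LOXL1 siRNA libraries lay below the others, with a difference from control siRNA of -0.11 (SE 0.04; limma, adjusted p = 0.362). CEMIP, a hyaluronan-depolymerising protein, had 1.13, 1.16 and 1.71 FPKM with LOXL1 siRNA, 1.73, 1.74 and 1.29 FPKM with LOX siRNA, and 1.75, 1.59 and 1.51 FPKM with control siRNA, with overlapping groups. Its relative TMEM2, now named CEMIP2, averaged 6.62 FPKM with LOXL1 siRNA, 6.19 FPKM with LOX siRNA and 6.75 FPKM with control siRNA.

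Among the binding genes, VCAN had the pattern over libraries most like that of HAS2. VCAN (chromosome 5, 83471674 to 83582303, plus strand) encodes versican, a large proteoglycan that binds hyaluronan through its N-terminal domain. It had 19.15, 17.90 and 17.76 FPKM with LOXL1 siRNA, 16.72, 16.08 and 14.86 FPKM with LOX siRNA, and 16.57, 15.58 and 16.24 FPKM with control siRNA. As for HAS2, every LOXL1 siRNA library lay above every other library, but by a smaller margin. The mean with LOXL1 siRNA was 13.3% above control siRNA and 15.0% above LOX siRNA. The fitted difference from control siRNA was 0.17 (SE 0.05, 95% interval 0.06 to 0.28), and from LOX siRNA 0.19 (SE 0.05, 95% interval 0.08 to 0.30). Neither passed the test (limma, adjusted p = 0.273 and 0.146), and the value against LOX siRNA was 0.12 with length and GC trends removed. LOX siRNA differed from control siRNA by -0.02 (limma, adjusted p = 0.953). VCAN shares 453 exon bases with the antisense gene VCAN-AS1. Antisense genes also share 293 exon bases with UGDH, 113 with HMMR and 84 with CD44.

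The promoter of VCAN is shown because VCAN was the gene of the set with the highest correlation with HAS2 over the 9 libraries (r = 0.89). Its 250 bases before the RefSeq start (GRCh38.p14, chr5:83471494-83471743, plus strand, 5′ to 3′), a start downstream of the one in the deposited table, hold 1 match to GGGCGG or its reverse complement CCGCCC, the GC box, at 170 bases before the start and in capitals. This motif is in 42.6% of 35116 RefSeq promoters of the same length, so its presence is common.
VCAN: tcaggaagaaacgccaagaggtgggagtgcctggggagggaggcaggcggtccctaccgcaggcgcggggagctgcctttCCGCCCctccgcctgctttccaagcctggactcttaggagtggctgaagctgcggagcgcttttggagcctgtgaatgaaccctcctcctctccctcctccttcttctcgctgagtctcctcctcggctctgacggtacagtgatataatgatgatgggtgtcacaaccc

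CD44 (chromosome 11, 35138870 to 35232402, plus strand), the main cell surface receptor for hyaluronan, was the most abundant of the 10 genes. It had 177.96, 173.77 and 179.82 FPKM with LOXL1 siRNA, 172.66, 172.05 and 162.88 FPKM with LOX siRNA, and 180.03, 183.72 and 172.10 FPKM with control siRNA. The LOXL1 siRNA libraries overlapped the control libraries and lay just above the LOX siRNA libraries. The difference from control siRNA was -0.01 with LOXL1 siRNA (limma, adjusted p = 0.945) and -0.08 (SE 0.04) with LOX siRNA (limma, adjusted p = 0.706). LOXL1 siRNA was 0.07 above LOX siRNA (limma, adjusted p = 0.484).

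Of the genes that link CD44 to actin or cleave CD44 or versican, 7 of 11 were tested and none passed the test in any comparison. Their median difference from control siRNA was 0.04 with LOXL1 siRNA and -0.02 with LOX siRNA. MSN, which encodes moesin, a linker between CD44 and actin, had 432.20, 411.95 and 409.29 FPKM with LOXL1 siRNA, 384.60, 389.45 and 362.91 FPKM with LOX siRNA, and 377.88, 390.39 and 383.83 FPKM with control siRNA. Its LOXL1 siRNA libraries lay above all others, by 0.12 (SE 0.04) against control siRNA and 0.14 (SE 0.04) against LOX siRNA (limma, adjusted p = 0.291 and 0.154). RDX, the related linker radixin, averaged 34.2 ± 2.88 FPKM with LOXL1 siRNA, 31.6 ± 0.608 FPKM with LOX siRNA and 30.5 ± 0.798 FPKM with control siRNA (SD, n = 3 each). The LOXL1 siRNA libraries lay above the control libraries (limma, adjusted p = 0.324). ADAMTS1, a protease that cuts versican, averaged 12.1 ± 1.14 FPKM with LOXL1 siRNA, 10.5 ± 0.316 FPKM with LOX siRNA and 11.2 ± 0.552 FPKM with control siRNA (SD, n = 3 each), with overlapping groups. MMP14, a membrane protease that can shed CD44, averaged 35.1 FPKM with LOXL1 siRNA, 37.3 FPKM with LOX siRNA and 37.8 FPKM with control siRNA, also with overlap.

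TNFAIP6 (chromosome 2, 151357592 to 151380048, plus strand) encodes TSG-6, a secreted protein that moves heavy chains of inter-alpha-inhibitor onto hyaluronan and is induced by inflammatory cytokines. It met 1 FPKM in 2 libraries and was not tested. Its level was 0.44, 0.28 and 2.27 FPKM with LOXL1 siRNA, 0.52, 0.56 and 0.40 FPKM with LOX siRNA, and 0.76, 1.12 and 0.64 FPKM with control siRNA. The LOX siRNA libraries lay below the control libraries, whereas the LOXL1 siRNA group held both the lowest library, replicate 2, and the highest, replicate 3. One fragment is worth 0.0404 to 0.0417 FPKM here by the reading used for HAS3. The ratio of the mean with LOXL1 siRNA to that with control siRNA was 1.19 with all libraries and 0.429 without LOXL1 siRNA replicate 3. Against LOX siRNA it was 2.02 with all libraries and 0.730 without that library. The direction of the LOXL1 siRNA means therefore rests on that 1 library.

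The promoter of TNFAIP6 is shown because this gene, of the 10, had the widest spread relative to its mean within 1 group. Its 250 bases before the RefSeq start (GRCh38.p14, chr2:151357342-151357591, plus strand, 5′ to 3′) hold 1 match to TGANTCA, the AP-1 motif, at 129 bases before the start, and 2 to CCAAT or its reverse complement ATTGG, all in capitals. TGANTCA, searched on both strands, is in 6.57% of the 35116 promoters, and CCAAT or ATTGG in 32.0%.
TNFAIP6: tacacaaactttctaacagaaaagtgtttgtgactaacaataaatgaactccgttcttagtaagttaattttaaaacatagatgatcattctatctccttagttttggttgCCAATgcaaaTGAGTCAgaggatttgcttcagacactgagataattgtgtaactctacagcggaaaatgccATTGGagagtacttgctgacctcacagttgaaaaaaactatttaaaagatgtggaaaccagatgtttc

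LOXL1 siRNA replicate 3 stood apart in other genes too, which were listed after their values were seen and were not tested as a group. In that library 16 genes reached 1 FPKM and were at least 1.5 times the next highest library, against 0 to 3 in each of the other 8 libraries. They were TNFAIP6, CCL2, CXCL8, IL6, CSF3, CXCL6, C3, PTGES, PTGS2, ACOT1, C5orf63, C8orf44-SGK3, HIST1H1D, OASL, TMEM189-UBE2V1 and URGCP-MRPS24, so cytokine and prostaglandin genes stood beside genes of other kinds. CCL2 and IL6 are given as examples. CCL2, a monocyte chemokine, had 15.31, 24.11 and 63.99 FPKM with LOXL1 siRNA, 34.76, 32.55 and 32.20 FPKM with LOX siRNA, and 36.63, 36.21 and 27.69 FPKM with control siRNA. IL6, a cytokine, had 13.83, 16.06 and 38.92 FPKM with LOXL1 siRNA, 23.10, 19.70 and 21.67 FPKM with LOX siRNA, and 22.38, 25.15 and 17.66 FPKM with control siRNA. For both, as for TNFAIP6, replicates 1 and 2 with LOXL1 siRNA were below the control libraries and replicate 3 was above them. HAS2 did not show this split, with 12.34, 11.64 and 12.67 FPKM in the same 3 libraries. The part of these 16 genes in the other values of replicate 3 was not tested.

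**Figure D3:**
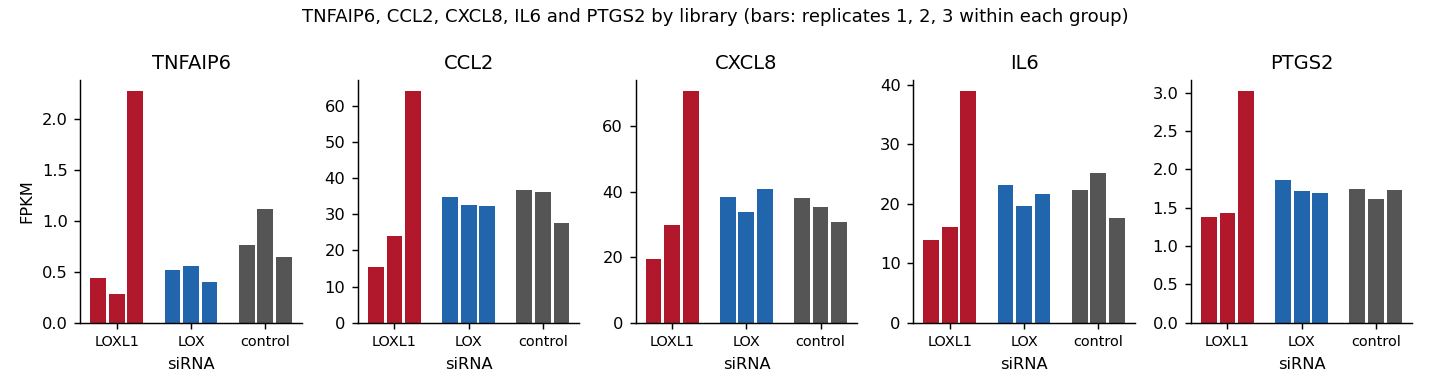
FPKM of TNFAIP6, CCL2, CXCL8, IL6 and PTGS2 in each library, 1 bar per library in the order of replicates 1, 2 and 3 within LOXL1 siRNA, LOX siRNA and control siRNA, on linear axes that start at 0. The bar of LOXL1 siRNA replicate 3 is the tallest in each panel, and those of replicates 1 and 2 of that group are the lowest in each panel but that of TNFAIP6, where replicate 1 is above LOX siRNA replicate 3.

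The other hyaluronan-binding genes were mostly low. Of 24 listed, 8 were tested, and none passed the test in any comparison. Their median difference from control siRNA was -0.01 with LOXL1 siRNA and 0.01 with LOX siRNA. LYVE1 and STAB2, receptors of endothelial cells, were at 0 to 0.03 FPKM in all libraries. PTX3, a pentraxin that joins TSG-6 and heavy chains in hyaluronan matrices, averaged 49.2 ± 3.15 FPKM with LOXL1 siRNA, 45.2 ± 4.10 FPKM with LOX siRNA and 46.5 ± 2.41 FPKM with control siRNA (SD, n = 3 each), with overlapping groups. ITIH4, of the inter-alpha-inhibitor family, had 0.84, 0.62 and 0.79 FPKM with LOXL1 siRNA, 0.92, 1.26 and 1.04 FPKM with LOX siRNA, and 1.12, 1.00 and 1.03 FPKM with control siRNA. Its LOXL1 siRNA libraries lay below all others, with a difference from control siRNA of -0.23 (SE 0.09; limma, adjusted p = 0.395). C1QBP, a mainly mitochondrial protein that also binds hyaluronan, differed from control siRNA by 0.08 with LOXL1 siRNA and 0.09 with LOX siRNA, with overlap. HAPLN3, a link protein, averaged 1.86 FPKM with LOXL1 siRNA, 2.20 FPKM with LOX siRNA and 2.22 FPKM with control siRNA, also with overlap.

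HMMR (chromosome 5, 163460511 to 163491945, plus strand) encodes RHAMM, which binds hyaluronan outside the cell and spindle microtubules inside it. It had 30.27, 28.50 and 26.66 FPKM with LOXL1 siRNA, 28.89, 28.31 and 26.84 FPKM with LOX siRNA, and 27.85, 26.00 and 26.82 FPKM with control siRNA. All 3 groups overlapped. The difference from control siRNA was 0.08 (SE 0.05) with LOXL1 siRNA and 0.06 (SE 0.05) with LOX siRNA (limma, adjusted p = 0.610 and 0.836). Removal of length and GC trends lowered these values to 0.03 with LOXL1 siRNA and 0.01 with LOX siRNA. The difference of LOXL1 siRNA from LOX siRNA was 0.02 (limma, adjusted p = 0.887).

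HMMR is transcribed in dividing cells, so its values are set beside 28 mitosis genes, all of which were tested. None passed the test in any comparison. In LOXL1 siRNA against control siRNA 27 of 28 were above 0, where 46.7% of all genes tested were, and the median was 0.07. An unadjusted p under 0.05 was found for 7 of the 28, where 10.2% of all genes had one. The 28 genes come from the same libraries and can move together, so counts of them are not counts of independent results. They were not tested as a set. In LOX siRNA against control siRNA, which shares the control libraries, 18 of 28 were above 0, where 52.2% of all genes were, the median was 0.01, and 3 of the 28 had an unadjusted p under 0.05, where 6.93% of all genes had one. MKI67, a proliferation marker, averaged 81.8 ± 6.61 FPKM with LOXL1 siRNA, 69.8 ± 2.58 FPKM with LOX siRNA and 75.2 ± 2.97 FPKM with control siRNA (SD, n = 3 each). Its LOXL1 siRNA libraries lay above the LOX siRNA libraries, by 0.22 (SE 0.05; limma, adjusted p = 0.109), and overlapped the control libraries. AURKB, a mitotic kinase, averaged 77.2 ± 0.943 FPKM with LOXL1 siRNA, 76.2 ± 1.97 FPKM with LOX siRNA and 71.5 ± 1.84 FPKM with control siRNA (SD, n = 3 each), with both targeting siRNA groups above the control libraries. ANLN, needed for cytokinesis, and DLGAP5, a spindle protein, differed from control siRNA by 0.10 and 0.14 with LOXL1 siRNA, without overlap (limma, adjusted p = 0.389 and 0.315).

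The promoter of HMMR is shown because its motifs are those of many mitosis genes. Its 250 bases before the RefSeq start (GRCh38.p14, chr5:163460382-163460631, plus strand, 5′ to 3′), a start that lies downstream of the one in the deposited table, hold 5 matches to CCAAT or its reverse complement ATTGG. A pair of these overlaps as CCAATTGG. They also hold 2 adjoining matches to TTTGAA, the core of the CHR element, at 28 and 22 bases before the start, and all matches are in capitals. CCAAT or ATTGG is in 32.0% of the 35116 promoters, and 5 or more matches in 0.319%. TTTGAA or its reverse complement TTCAAA is in 13.3%. Of 24 mitosis genes with a RefSeq promoter, 19 held CCAAT or ATTGG and 13 held TTTGAA or TTCAAA in any of their promoters. These counts are per gene and the percentages are per promoter, so they are unlike measures. A match is a description of the letters and shows no binding.
HMMR: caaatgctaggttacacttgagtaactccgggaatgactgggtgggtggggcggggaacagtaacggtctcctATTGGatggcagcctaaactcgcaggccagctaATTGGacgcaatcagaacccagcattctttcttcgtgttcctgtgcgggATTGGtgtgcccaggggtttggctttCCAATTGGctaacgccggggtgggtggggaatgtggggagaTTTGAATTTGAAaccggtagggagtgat

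Across the 8 tested genes of the set, 1 passed an adjusted p under 0.05 in LOXL1 siRNA against control siRNA, where 0.0762% of the 11808 genes tested did. That gene was HAS2, whose call was known when the set was drawn up, so the count was fixed by the choice and nothing is read from it. None passed in LOX siRNA against control siRNA, where 0.00847% of all genes did, and none of the 8 had an unadjusted p under 0.05, where 6.93% of all genes did. In LOXL1 siRNA against LOX siRNA 1 passed, again HAS2 and again fixed by the choice, where 0.212% of all genes did. Without LOXL1 siRNA replicate 1, LOX siRNA replicate 2 or LOX siRNA replicate 3 the number was 0. Beside HAS2, VCAN was the one gene of the 8 with an unadjusted p under 0.05 in the comparisons of LOXL1 siRNA, where 10.2% of all genes had one against control siRNA and 12.8% against LOX siRNA. The median difference of the 8 genes was 0.03 in LOXL1 siRNA against control siRNA, -0.02 in LOX siRNA against control siRNA and 0.05 in LOXL1 siRNA against LOX siRNA. Over all genes tested the medians were -0.01, 0.00 and -0.01 in the same order.

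**Figure D4:**
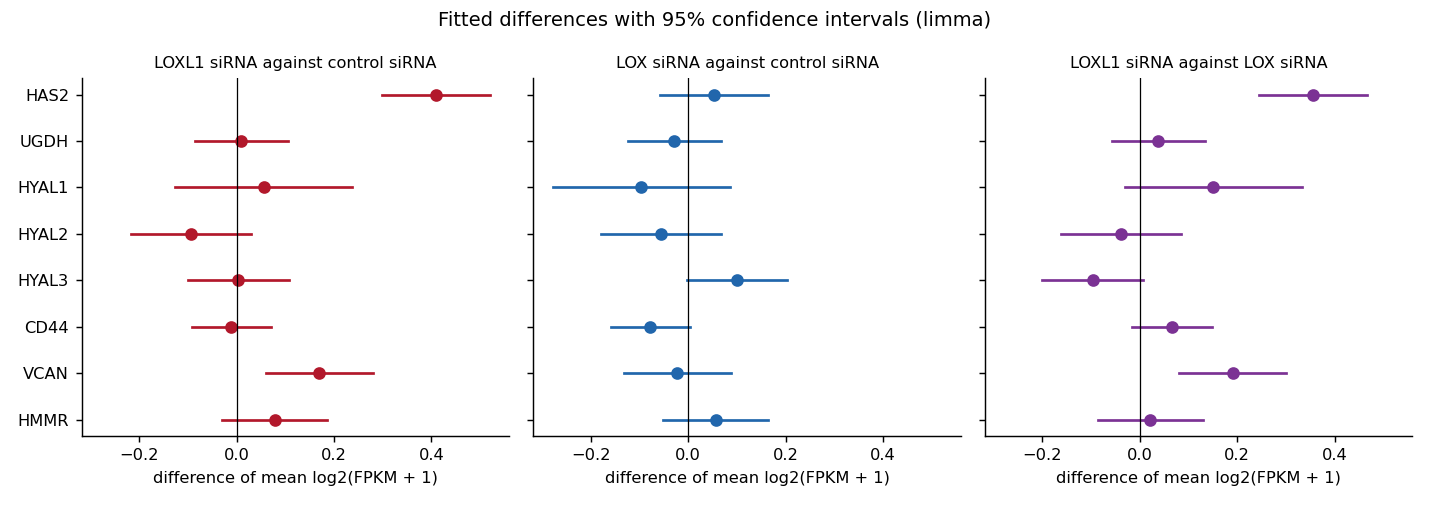
Fitted differences of mean log2(FPKM + 1) with 95% confidence intervals from limma for the 8 tested genes, 1 panel per comparison, with the first-named group minus the second. HAS2, whose values chose the set, stands at 0.41 and 0.36 in the comparisons of LOXL1 siRNA, VCAN at 0.17 and 0.19, and the intervals of the other 6 genes cross 0 in all panels.

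Libraries of both groups did not overlap for 2 of the 8 genes in LOXL1 siRNA against control siRNA, namely HAS2 and VCAN, where 14.3% of all tested genes did not overlap. In LOX siRNA against control siRNA this held for 1 of 8, HYAL3, where 12.8% of all genes did not overlap. In LOXL1 siRNA against LOX siRNA it held for 4 of 8, HAS2, VCAN, HYAL1 and CD44, all with LOXL1 siRNA above, where 21.5% of all genes did not overlap and 9.41% did so with LOXL1 siRNA above. HYAL1 passed the filter on low values through the LOXL1 siRNA libraries, so its place in that count is partly set by the filter. The values of HAS2 chose the set, so its place in the counts of the LOXL1 siRNA comparisons was fixed in advance.

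**Figure D5:**
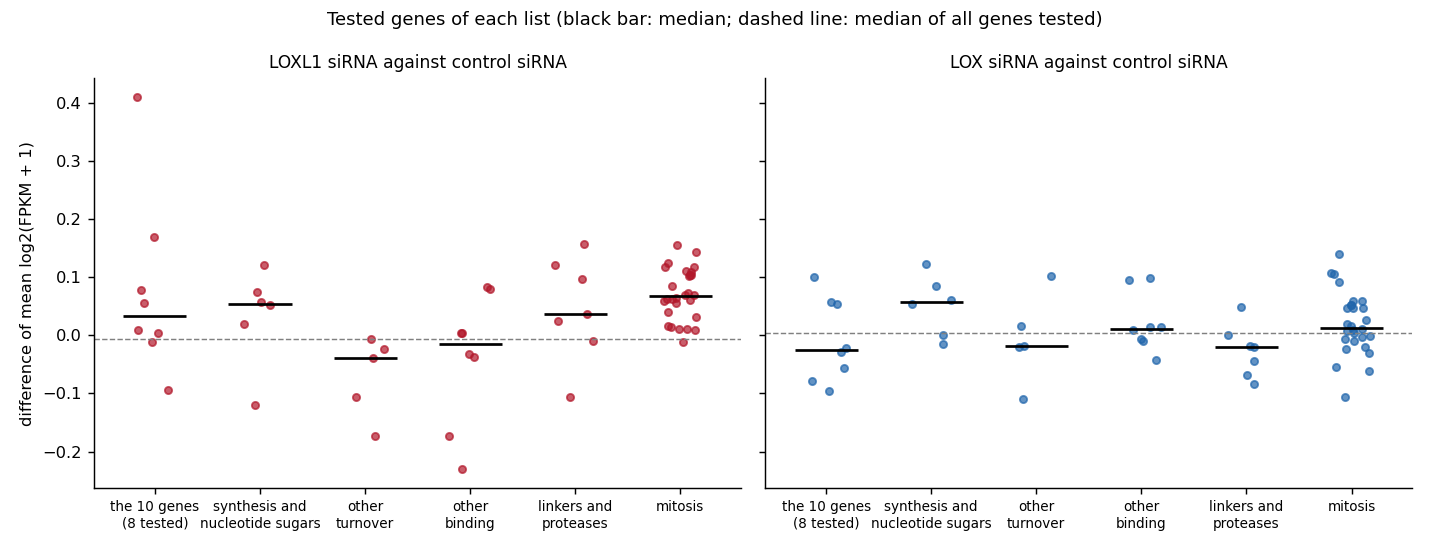
Differences of mean log2(FPKM + 1) of the tested genes of each list (points) with the list's median (black bar) and the median of all genes tested (dashed line), for LOXL1 siRNA and for LOX siRNA, each against control siRNA. In the left panel HAS2 is the highest point at 0.41 and the mitosis genes have a median of 0.07, and in the right panel all medians lie within 0.06 of 0.

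By likeness to HAS2, measured as Pearson's r of log2(FPKM + 1) over the 9 libraries among 8979 tested genes with a mean of at least 5 FPKM, VCAN ranked 19th with r = 0.89. HMMR had r = 0.45, UGDH 0.35, CD44 0.22, HYAL3 -0.28 and HYAL2 -0.54. The libraries are in 3 groups that differ in HAS2, so r mostly reflects the level with LOXL1 siRNA against the other groups. The 5 most alike genes were RGMB (r = 0.97), GINS1 (0.96), ELL2 (0.96), NRAS (0.95) and FGF5 (0.94). RGMB, a BMP co-receptor, averaged 75.6 FPKM with LOXL1 siRNA, 70.9 FPKM with LOX siRNA and 70.7 FPKM with control siRNA. FGF5, a growth factor, averaged 13.9 FPKM with LOXL1 siRNA, 12.2 FPKM with LOX siRNA and 12.1 FPKM with control siRNA. The 5 most opposite were CABLES2 (r = -0.99), TMBIM1 (-0.98), ATG9A (-0.97), KIAA1191 (-0.97) and FLCN (-0.97). CABLES2 averaged 22.4 FPKM with LOXL1 siRNA, 25.3 FPKM with LOX siRNA and 25.7 FPKM with control siRNA. FLCN, which encodes folliculin, averaged 11.7 FPKM with LOXL1 siRNA, 12.8 FPKM with LOX siRNA and 13.4 FPKM with control siRNA. None of these most alike or most opposite genes passed the test in any comparison.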

How the data were processed

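RNA from 9 LX-2 libraries was sequenced on a BGISEQ-500. The authors deposited FPKM values for 17123 protein-coding genes, per the file headers. TopHat2 2.0.10 and hg19 are named in the submitters' processing notes. The sources used here do not name the FPKM tool. Of 17086 gene IDs matched to RefSeq, 91.3% had starts within 5000 bases of GRCh38.p14, so positions are read as GRCh38. FPKM divides by transcript length and library total, so a shift in fragment GC content or length moves whole classes of genes.

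Genes with at least 1 FPKM in at least 3 libraries (11808) were analysed as log2(FPKM + 1) in 1 limma fit of 3 groups over 9 libraries (limma 3.58.1, R 4.3.3, empirical Bayes with trend, 6 residual degrees of freedom, two-sided). Benjamini-Hochberg adjustment covered all 11808 genes, and a gene passed at an adjusted p under 0.05. The fit was also run on simulated data, and no result here is read from that run. Exon overlaps came from GENCODE v29 and promoters from RefSeq, which matched 9 of the 10 genes. Alternatives were median-ratio and quantile scaling, a pseudocount of 0.1, no filter, a mean of at least 5 FPKM, the replicate number as a block, the compared groups alone, no trend, removal of length and GC trends, and each library left out. The members and lists were chosen with earlier results of these data known. From each further list, up to 4 tested genes with the smallest unadjusted p over the 3 comparisons were named, and for likeness to HAS2 the 5 highest and 5 lowest r. One gene that this rule names is not reported here.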

Additional observations from a re-analysis of the deposited data

How the results depend on the processing

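The set was chosen by the values of HAS2, so its calls in the comparisons of LOXL1 siRNA support nothing. In LOXL1 siRNA against LOX siRNA, 1 of the 8 tested hyaluronan genes passed, HAS2, and 0 passed with no filter or when LOXL1 siRNA replicate 1, LOX siRNA replicate 2 or LOX siRNA replicate 3 was left out, so that count ranged over 0 to 1. VCAN passed under no alternative. None of the 8 genes had a called value that changed sign.

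The number of all tested genes past the threshold in LOXL1 siRNA against control siRNA was 9. It was 15 with length and GC trends removed and 6 to 14 when 1 library was left out, the highest without LOXL1 siRNA replicate 3. In LOX siRNA against control siRNA it was 1, with 2 under no filter, 2 with length and GC trends removed, and 1 to 2 when 1 library was left out, the highest without LOX siRNA replicate 1. In LOXL1 siRNA against LOX siRNA it was 25, with 11 under quantile normalization, 4 under no filter and 8 without the trend. Leaving out 1 library gave 5 to 56, with 5 without LOX siRNA replicate 2 or replicate 3, 6 without LOXL1 siRNA replicate 1, 9 without LOX siRNA replicate 1, 13 without LOXL1 siRNA replicate 2, 14 without control siRNA replicate 1, 39 without LOXL1 siRNA replicate 3 and 56 without control siRNA replicate 2. The causes were not tested.

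Same-numbered libraries did not deviate together (r of -0.07 to 0.03), and different-numbered pairs had r of -0.08 to 0.08. The values thus show no pairing by number, though they cannot exclude one. With the replicate block the counts were 6 in LOXL1 siRNA against control siRNA, 1 in LOX siRNA against control siRNA and 15 in LOXL1 siRNA against LOX siRNA. The TNFAIP6 mean ratios without LOXL1 siRNA replicate 3, 0.429 against control siRNA and 0.730 against LOX siRNA, were chosen after seeing the data. FPKM without counts gives no depth, so HAS3, TNFAIP6 and HYAL1, all near or under 1 FPKM, are the least precise of the 10 genes.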
